A study of Mus musculus with 4 samples.

Results

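Tspan11 and Pax1 fibroblasts were 558 of the 7162 fibroblasts found among single cells from mouse collecting lymphatic vessels with their surrounding tissue, or 7.79% (exact 95% interval 7.18 to 8.44). Cell barcodes with at least 500 gene UMIs (counts of distinct captured RNA molecules), 300 or more genes and less than 15% of UMIs from mitochondrial genes were taken, 23666 of 24046. Fibroblasts were those with at least 1 UMI of Pdgfra and 5 of Dcn and none of Ptprc, Pecam1 or Upk3b, the markers of leukocytes, endothelium and mesothelium. Members were the fibroblasts in which the UMIs of Tspan11, Pax1 and Mlana summed to at least 2 and to more than each of 4 other sums, those of Pi16 and Dpp4, of Tcf21, Asb4 and Rspo3, of Ngfr, Fgf10 and Gsc, and of Col8a1, Adamts16 and Krtdap. The same rule put 3589 fibroblasts in the Pi16 and Dpp4 kind, 629 in the Tcf21, Asb4 and Rspo3 kind, 439 in the Ngfr and Fgf10 kind and 123 in the Col8a1 and Adamts16 kind, and left 1824 unclassified.

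The animals were C57BL/6J mice of 12 to 14 weeks, 4 male and 4 female, with no transgene or treatment named in the labels. Vessels of 4 regions (popliteal, inguinal axillary, superficial cervical and mesenteric) were pooled for each mouse, so a cell's region of origin is not known. Cells of the mice of each sex were tagged with oligonucleotides and combined, and the deposited matrix joins all of them under barcode suffixes 1 to 8. The labels tie no suffix to a mouse or a sex. The matrix was therefore treated as 1 sample: no test was made, and cells were not used as replicates. Values of the 8 suffixes are given as those of unlabelled samples, by their lowest, median and highest.

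Members came from every suffix, 44 to 128 in each, and made up 5.22% to 10.5% of a suffix's fibroblasts (median 7.60%). They held a median of 8988 UMIs, fewer than the 11579 of the other fibroblasts, and a deeper cell passes the threshold of 2 UMIs more easily. No barcode sequence occurred in more than 1 member, and 3 members had a sequence that recurs elsewhere among the deposited barcodes, of which 44 sequences do. A doublet caller marked 8 members (1.43%) against 1.73% of the other fibroblasts.

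Fibroblasts make and remodel the connective tissue around vessels, secreting collagens and glycoproteins, the proteases that cut them, and ligands read by nearby muscle, endothelial and immune cells. They keep transcription factor programmes from the embryonic region in which they arose, and they differ by layer, with Pi16 and Dpp4 fibroblasts known from the loose outer fascia and adventitia. Tspan11 encodes a tetraspanin, a membrane organiser. Pax1 encodes a paired-box transcription factor of the sclerotome and pharyngeal pouches, and Mlana a melanosome protein used as a melanocyte marker. Mmp3 encodes stromelysin, a secreted protease of broad range that cleaves proteoglycans and activates other matrix metalloproteinases.

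The genes of the rule chose the members, so their levels are a description only. Levels are given as CPM, the UMIs of a gene per 1000000 gene UMIs summed over the cells of a group. Tspan11 (chromosome 6, 127887589 to 127953977, plus strand, GRCm38) stood at 252 CPM in members, with a lowest suffix of 207, a median of 252 and a highest of 289, and at 11.6 CPM in the other fibroblasts. Pax1 (chromosome 2, 147361925 to 147393295, plus strand) stood at 65.3 CPM (16.9, 55.6 and 144) and at 1.48 CPM in the others. Mlana (chromosome 19, 29697824 to 29708634, plus strand) stood at 65.7 CPM (27.9, 62.5 and 88.4) and at 1.84 CPM in the others. Tspan11 carried most of the choice, being detected in 499 members (89.4%), whereas Pax1 was detected in 140 (25.1%) and Mlana in 155 (27.8%). All 3 were found together in 15 members, Tspan11 with Pax1 in 101, Tspan11 with Mlana in 100, and Tspan11 alone in 283. The label's second gene was thus absent from most single members at this depth.

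When every cell was thinned at random to 3000 UMIs, Tspan11 was found in 56.3% of 551 members (52.0 to 60.5), 4.21% of 6432 other fibroblasts and 0.222% of 6304 leukocytes, cells that should lack it and in which stray RNA sets the background. Without thinning the shares were 89.4%, 11.5% and 0.593%, at median depths of 8988, 11579 and 7260 UMIs. Pax1 was found in 13.1% of thinned members and 0.0635% of thinned leukocytes (25.1% and 0.155% unthinned). The values for Mlana were 15.8% and 0.0793% (27.8% and 0.141% unthinned). The rule itself set these shares in members.

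Each rule gene could be read in cells chosen without it. Those cells still had to exceed the 4 other sums, and the comparison cells held the other kinds of fibroblast. The ratios may therefore follow in part from the rule, and that part was not tested. In the 144 fibroblasts chosen by Pax1 and Mlana, Tspan11 stood at 114 CPM against 24.8 in the other fibroblasts, a ratio of 4.6 (3.91 to 5.38). In the 480 chosen by Tspan11 and Mlana, Pax1 stood at 31.6 against 3.97 CPM, a ratio of 7.96 (6.47 to 9.75). In the 460 chosen by Tspan11 and Pax1, Mlana stood at 28.0 against 4.58 CPM, a ratio of 6.11 (4.93 to 7.53). Each left-out gene was higher in the chosen cells in 8 of 8 suffixes. With the rule applied at 3000 UMIs, this order held in 5 of 8 suffixes for Tspan11 and Pax1 and in 3 of 8 for Mlana, on 28, 10 and 17 UMIs. Intervals of levels and ratios are exact 95% intervals that cover counting error only. Among 377 cells chosen by Tspan11 alone, Mlana was detected in 16.7% of the 54 with Pax1 (7.92 to 29.3) and in 12.4% of the 323 without it (9.00 to 16.5), at median depths of 10211.5 and 8398 UMIs. These intervals cover counting error over cells of all suffixes, and the difference between the shares was not tested.

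The threshold of the rule cut through a range of cells. The 224 members at a sum of 2 had 1778 CPM of Mmp3, 692 of F3 and 706 of Fmo2. The 280 fibroblasts just outside, with a sum of 1 that was still the largest, had 1149, 589 and 601 CPM of the same genes. The 1335 unclassified fibroblasts with none of the 3 rule genes had 505, 278 and 318 CPM. For these genes the cells just outside lay between the members at a sum of 2 and the cells with none. For Mgp (1413 against 1375 CPM) and Gria4 (181 against 161) the cells just outside instead lay above the members at a sum of 2. The 334 members at a sum of 3 or more had less Mmp3 than those at 2 (1425 CPM) but more F3 (960.1). In the 162 fibroblasts with a sum of 2 or more that was not the largest, Mmp3 stood at 762 CPM, F3 at 366 and Fmo2 at 197.

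For every other gene, members were set against the 6604 other fibroblasts. A gene counted as tested where it reached 20 CPM in either group. It was called higher or lower where the levels were at least 2 times apart with the same order in at least 7 of 8 suffixes. A gene that reached 20 CPM in members alone could only be called higher, and in the others alone only lower. Of 6557 tested genes, 150 (2.29%) were called higher in members and 411 (6.27%) lower. Genes called higher included those of a protease, a clotting receptor, a flavin monooxygenase, a homeobox factor and a complement protein. Genes called lower included those of several matrix glycoproteins, an endothelin and the factor Wt1.

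Mmp3 (chromosome 9, 7445822 to 7455975, plus strand) was the gene of highest level among the 20 with the largest ratios. As a marker given for the part with earlier results of these data known, Mmp3 is described only. It stood at 1557 CPM in members, with suffixes from 1012 (median 1672, highest 2046), and at 318 in the others (210.2, 335 and 420.2), a ratio of 4.89 (4.77 to 5.02). The lowest suffix of the members lay above the highest of the others. F3, which encodes tissue factor, the receptor that starts blood clotting, stood at 859.6 CPM (354, 826 and 1349) against 162 (95.4, 162 and 226), a ratio of 5.32 (5.14 to 5.50). Fmo2, a flavin-containing monooxygenase, stood at 679 CPM (468, 648 and 955) against 126 (73.6, 132 and 156). The suffix ranges of F3 and of Fmo2 did not overlap between the groups either. How many of all tested or called genes part in this way was not counted. Ranges without overlap are therefore a description only, here and below. In thinned cells Mmp3 was found in 68.8% of members (64.7 to 72.6), 27.5% of the others and 2.25% of leukocytes, and the unthinned shares were 77.6%, 40.7% and 4.91%. Both the share of cells and the level therefore ran in the same direction.

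**Figure D1:**
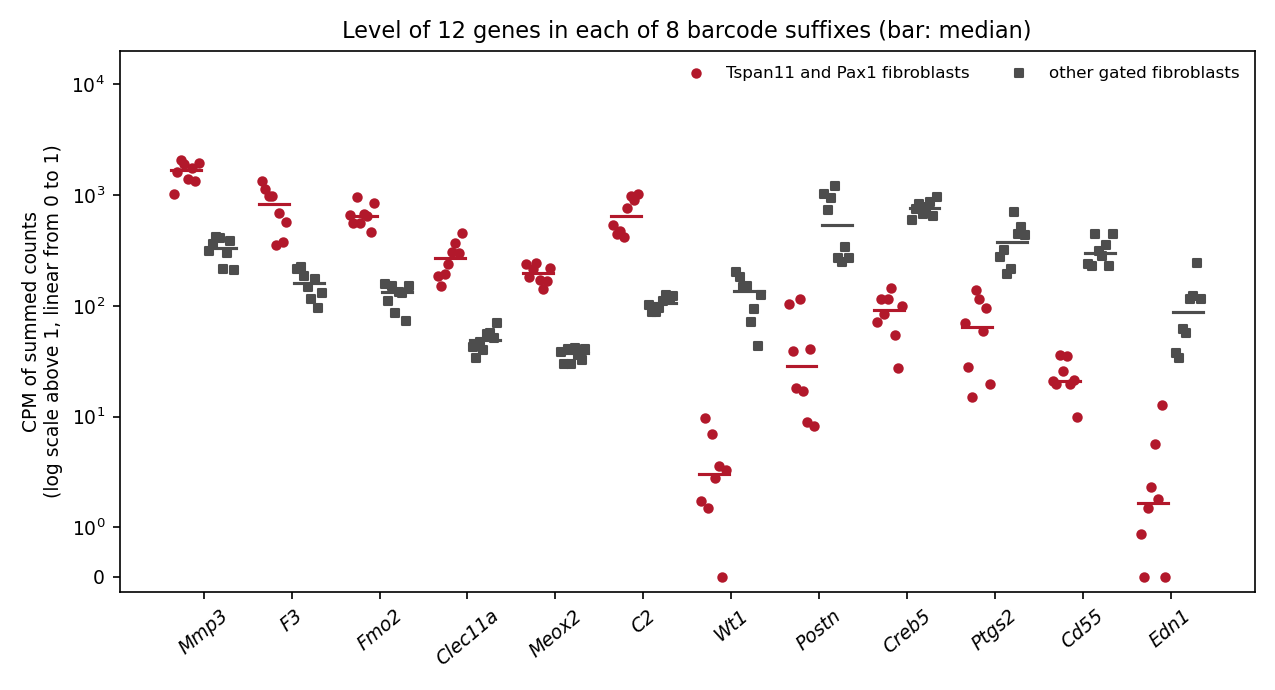
Levels of 12 genes in each barcode suffix, as CPM of summed counts on an axis that is logarithmic above 1 and linear from 0 to 1. Red circles are the Tspan11 and Pax1 fibroblasts of a suffix, grey squares the other fibroblasts of the same suffix, and bars the medians of 8 suffixes. For Mmp3 all members' points lie at 1012 CPM or above and all others at 420.2 or below, and for Wt1 the members' highest point is 9.81 and the others' lowest 43.7.

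The stretches before Mmp3 and F3 are printed because these are the members' protease and clotting receptor with the highest levels, and because Fos and Junb, subunits of the AP-1 factor, were abundant in the same cells. They are the 250 bases before each gene's start, 5′ to 3′, from RefSeq on GRCm38.p6. Capitals mark the AP-1 letters TGANTCA, a motif that reads the same on both strands.
Mmp3, chr9:7445572-7445821, plus strand: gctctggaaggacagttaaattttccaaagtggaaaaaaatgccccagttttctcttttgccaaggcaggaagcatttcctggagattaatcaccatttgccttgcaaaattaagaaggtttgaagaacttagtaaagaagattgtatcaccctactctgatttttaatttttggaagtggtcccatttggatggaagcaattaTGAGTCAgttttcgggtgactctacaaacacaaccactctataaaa
F3, chr3:121723287-121723536, plus strand: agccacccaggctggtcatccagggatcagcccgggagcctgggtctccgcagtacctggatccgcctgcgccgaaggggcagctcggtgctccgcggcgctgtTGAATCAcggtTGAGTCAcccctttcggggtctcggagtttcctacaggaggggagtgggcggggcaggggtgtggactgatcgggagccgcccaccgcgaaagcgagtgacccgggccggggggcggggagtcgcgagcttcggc
The match before Mmp3 began 46 bases before the gene's start, and the F3 stretch held 2, which did not overlap, at 146 and 135 bases. The motif was also looked for before the RefSeq starts of Tspan11 and Pax1, the genes that name the part. Their stretches (chr6:127887372-127887621 and chr2:147364744-147364993) held 0 matches. These starts differ from the gene positions given above. The Pax1 stretch lies inside that gene's position and the Tspan11 stretch runs into it. Bases before the Pax1 start given above were therefore not searched, and those before Tspan11 only in part. Whether AP-1 acts on any of these genes was not tested. Of 32851 such stretches of 250 bases, 6.75% held at least 1 match and 0.338% held 2 or more. Fos stood at 6783 CPM in members and 5867 in the others, and Junb at 5318 and 4077. Of the 34 tested immediate early and stress genes, 0 were called higher and 1 lower, Klf2, a flow-responsive transcription factor (453 against 1531 CPM). The list's median log2 ratio was 0.03, beside −0.05 over all tested genes.

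Several genes among the 20 with the largest ratios were of lower level than Mmp3, F3 and Fmo2. Frmd5, a FERM-domain protein of cell junctions, was 11.7 times higher (62.1 against 5.29 CPM, 10.1 to 13.6). Hopx, a homeodomain protein that does not bind DNA, was 10.4 times higher (28.1 against 2.71 CPM). Gria4, a subunit of AMPA-type glutamate receptors, reached 211 against 31.1 CPM, and its suffixes ran from 80.5 to 336 in members and from 15.3 to 50.8 in the others, without overlap. Dkk3, a secreted relative of the Dickkopf Wnt antagonists, stood at 83.8 against 12.4 CPM. Avpr1a, the vascular vasopressin receptor, stood at 43.8 against 7.47 CPM, and Angpt2, a ligand of the endothelial receptor Tie2, at 34.2 against 5.85. Arhgdib, an inhibitor of small GTPases, reached 115 against 19.2 CPM, and Pltp, the phospholipid transfer protein, 357 against 64.8. Prdm6, a transcriptional regulator known from smooth muscle, stood at 45 against 7.50 CPM. Ripor2 (27.5 against 3.95) and Paqr6 (23.6 against 3.86) were low but also higher, and these genes kept their order in 8 of 8 suffixes. Ifitm1, an interferon-induced membrane protein, and Pcdh11x, a protocadherin, were higher in 7 of 8, and Ifitm1 ran from 7.06 to 267 CPM over the members' suffixes.

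Lipid and adipocyte-regulating genes were the list with the most calls in the higher direction. Of 23 tested, 9 were called higher (F3, Fmo2, Clec11a, Fmo1, Apoe, Apod, Gdf10, Mgp and Inmt) and 3 lower. The median log2 ratio of the list was 0.73. Over all tested genes 2.29% were called higher and 6.27% lower, with a median of −0.05. The list was drawn up with earlier results of these data known, so its count is not independent of them. F3, Clec11a and Fmo2 are known together from stromal cells of mouse fat that hold back adipocyte formation, and Gdf10 encodes a secreted factor of the BMP family. Clec11a, a secreted growth factor for bone and blood, stood at 265 CPM in members (150.4, 269.8 and 455) and 49.6 in the others (33.9, 49.2 and 69.5). Mgp, an inhibitor of calcification, stood at 1750.2 against 422 CPM, a ratio of 4.15 (4.06 to 4.25). Gdf10 stood at 499 against 161, Apoe at 1693 against 581, and the methyltransferase Inmt at 798 against 277 CPM. Those lower were the fatty acid carrier Fabp4 (34.8 against 155), the lipid droplet protein Plin2 (51.5 against 128) and Zfp423, a factor of preadipocyte commitment (8.46 against 23.9). The 5 adipocyte markers summed to 1.54 CPM in members and 14.8 in the others, and Cidec was at 0.

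Macrophages also make Apoe, Pltp and C2, and macrophage markers were higher beside them. The 10 markers of macrophages and other leukocytes summed to 243 CPM in members (151 to 425 over suffixes) and 126 in the others (69.5 to 205), although every cell had 0 Ptprc by the rule, and 2 of 5 tested were called higher. None of the 10 was at 0. C1qa stood at 65.9 against 28.8 CPM, Csf1r at 22.5 against 8.76 and Lyz2 at 81.1 against 47.0. Arhgdib and Ripor2 also had UMIs in more leukocytes (76.3% and 27.2%) than other fibroblasts (15.1% and 3.33%), whereas C2 had them in 11% and 47.5%. Among other genes called higher, Ccl8, Cxcl16, Gas6 and Hopx also had UMIs in more leukocytes than other fibroblasts, and Mmp3, F3 and Cxcl12 in fewer. How many of all genes called higher did so was not counted. The part of macrophages and other leukocytes in the higher levels of Apoe, Pltp, C2, Arhgdib, Ripor2, Ccl8, Cxcl16, Gas6 and Hopx was not tested.

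Complement genes split. C2, a serine protease of the classical pathway, stood at 673 CPM in members (414, 647 and 1024) and 106 in the others (87.6, 106 and 124), a ratio of 6.34 (6.09 to 6.59). Clu, an inhibitor of the terminal complex, stood at 47.1 against 18.6. C3, the central component, was lower at 1132 against 2341 CPM. Cd55, which protects cells by breaking up C3 convertases, was 13.1 times lower (23.6 against 310.3 CPM, 11 to 15.8), and its suffixes ran from 9.85 to 36.0 and from 229.5 to 448, without overlap. The list thus held 2 higher and 2 lower among 15 tested, with a median log2 ratio of 0.26.

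Among chemokines and cytokines, 5 of 29 tested were called higher and 4 lower (median log2 ratio −0.23). Cxcl12, which attracts and retains leukocytes and stem cells, stood at 931 CPM in members (799, 944 and 1079) and 243 in the others (186, 219.7 and 339). Its decoy receptor Ackr3 ran the other way, at 57.8 against 338 CPM. Cxcl14 (564 against 221), Ccl8 (212 against 101), Cxcl16 and the B-cell survival factor Tnfsf13b were the others called higher. Against unclassified fibroblasts alone the order of Cxcl14 turned (595 CPM there). The monocyte attractant Ccl2 stood at 522 against 1484 CPM, the B-cell attractant Cxcl13 at 38.4 against 124, and Lcn2 at 1.35 against 26.7. Ptgs2 and Ptgis, of prostanoid synthesis, were called lower. Ptgs2, the inducible cyclooxygenase, stood at 65.0 CPM (15, 64.4 and 139.7) against 402 (195, 376 and 698), and the prostacyclin synthase Ptgis at 23.4 against 147. The list of steroid, retinoid and prostanoid genes had 3 of 24 tested called higher, among them Hsd11b1 and Cyp7b1, and 7 lower, with a median of −0.42.

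The matrix genes of members were mostly lower. Of 51 tested core fibroblast and matrix glycoprotein genes, 2 were called higher and 26 lower, with a median log2 ratio of −1.0 beside −0.05 over all tested genes. Those higher were the small proteoglycans Bgn (1395 against 567 CPM) and Podn (211 against 90.6). Postn, periostin, stood at 47.1 CPM in members (8.21, 28.6 and 114) and 605 in the others (246, 534 and 1200.2), 12.9 times lower (11.3 to 14.6). Its groups did not overlap. Fibronectin, Fn1, stood at 714 against 2657 CPM, and the elastic microfibril genes Fbn1 at 269 against 1393 and Mfap5 at 349 against 1181. Elastin, Eln, and the collagen and elastin crosslinker Lox were lower too, at 128 against 275 and 30.4 against 93.5 CPM. Of the laminin and basement membrane genes 0 of 9 tested were called higher and 5 lower (median −1.42), among them nidogen, Nid1 (201 against 698), and the laminin chain Lamc1 (135 against 369).

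The lower levels did not extend to all matrix genes. The list of core fibroblast and matrix glycoprotein genes summed to 61314 CPM in members and 53554 in the others. Its suffix ranges overlapped (48509.5 to 77524 and 48957.6 to 58188.8 CPM). That list also holds genes outside the matrix, such as Vim and Cd34, so its sum is not one of matrix genes alone. The fibrillar collagens Col1a1 (5703 against 3363 CPM) and Col3a1 (5887 against 5758 CPM) were not called. Of 21 tested collagens 0 were called higher and 6 lower (median −0.47), led in level by Col14a1, a collagen on the surface of fibrils (134 against 516 CPM), and including Col12a1, Col6a5 and Col6a6. Among matrix proteases and their inhibitors, 2 of 31 tested were called higher and 6 lower (median −0.23). Besides Mmp3 the gene called higher was Ctsk, a cathepsin that digests collagen and elastin (734 against 266 CPM). The inhibitor Timp3 (227 against 587) and the aggrecanase Adamts5 (189.7 against 548) were lower.

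**Figure D2:**
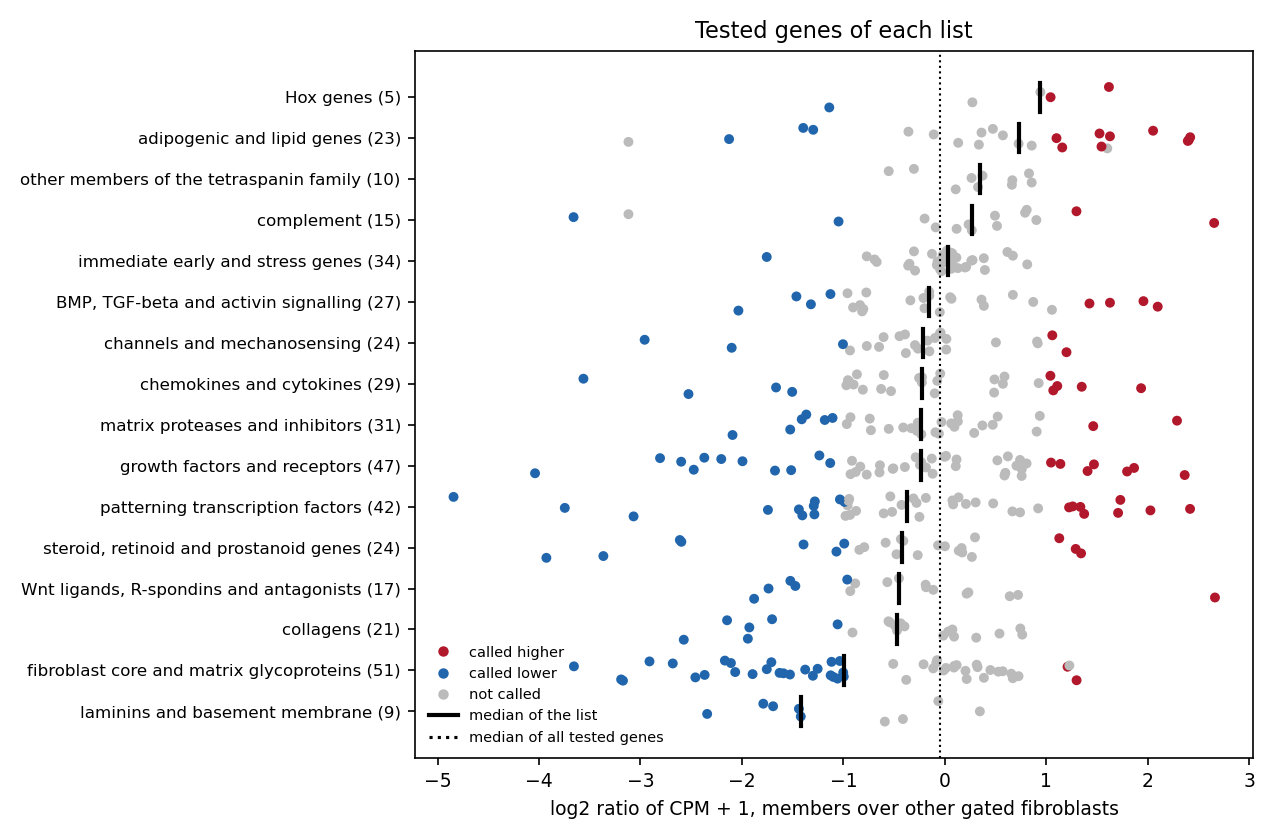
Log2 ratios of CPM + 1, members over other fibroblasts, for the tested genes of 16 lists, with the number tested in brackets. Each point is a gene, red where called higher, blue where called lower and grey where not called. Black bars mark list medians and the dotted line the median of all tested genes, −0.05, so that the lipid list lies to its right at 0.73 and the laminin list to its left at −1.42.

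Transcription factors of patterning were called in both directions, 8 of 42 tested higher and 11 lower (median −0.37). Meox2, a homeobox factor of the somite and of muscle precursors, stood at 200.2 CPM in members (141, 197 and 244) and 36.7 in the others (29.7, 37.3 and 41.9). Its suffix ranges did not overlap, and its ratio was 5.45 (5.08 to 5.85). Tbx18 (34.2 against 9.62 CPM), a T-box factor of somites and mural cells, En1 (37.5 against 13.9), an engrailed factor that marks a lineage of dorsal skin fibroblasts, and Foxs1 (32.5 against 9.26) were called higher. So were Osr1 (394 against 164), the orphan receptors Nr2f1 and Nr2f2 (186 against 73.1 for the latter) and Klf5 (58.4 against 13.6).

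Wt1, a zinc finger factor of mesothelium and the stroma beneath it, was nearly absent, at 3.46 CPM in members (0, 3.05 and 9.81) against 127 in the others (43.7, 137 and 204), 36.7 times lower (23.2 to 61.9). Creb5, a CREB-family factor, stood at 89.4 CPM (27.6, 92.1 and 145) against 757 (600.1, 764 and 951). Nkx2-3, a factor of gut and spleen mesenchyme, stood at 0.961 against 25.3 CPM, and the Hox cofactors Meis1 at 17.3 against 60.3 and Meis2 at 47.1 against 129. None of the suffix ranges of Wt1 and Creb5 overlapped between the groups.

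Hox genes, which mark position along the body axis, were low, with 18 of 39 at 5 CPM or more in either group. All 5 such genes of the Hoxa cluster lay below the others' level, from Hoxa3 (2.50 against 7.08 CPM) and Hoxa5 (2.11 against 10.2) to Hoxa10 (9.03 against 21.1). The same held for the 4 such Hoxb genes, from Hoxb2 (15.9 against 18.9) to Hoxb6 (3.27 against 7.06), and for Hoxc11 (6.92 against 16.8). Genes under 5 CPM in members, such as Hoxa3, Hoxa5 and Hoxb6, entered only through the others' level, so the filter fixed their direction. The share of all genes lying below the others' level was not counted, so these counts are a description only. Of the Hoxa genes Hoxa10 alone reached the level for testing and was called lower, since the rest stayed under 20 CPM. Hoxd8 (22.1 against 6.54 CPM) and Hoxc8 (29.0 against 13.6) were called higher, in 8 of 8 suffixes each. Hoxd8 and Hoxc8 reached 20 CPM in members only and Hoxa10 in the others only, so the filter fixed their direction too. Hoxc9 (28.8 against 14.5) missed 2-fold, and Hoxc10 (13.5 against 15) was not called. Since vessels of 4 regions were pooled, these levels cannot be set against an anatomical region.

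Signalling genes carried several antagonists. Among BMP, TGF-beta and activin genes, 4 of 27 tested were called higher and 4 lower (median −0.16). Among those higher were the BMP antagonist Chrdl1 (249 against 57.4 CPM), the activin antagonist Fstl3 (30.2 against 10.6) and Gdf10. Lower were the ligands Bmp2 (13.5 against 58.2) and Tgfb2 (34.8 against 97.7), with Fstl1 and the receptor Tgfbr1. Of 17 tested Wnt genes only Dkk3 was called higher, and Wnt2, Wnt11, Sfrp1, Dkk2 and Ror2 were lower (median −0.45). Wnt2 was at 17.9 CPM in members and 35.8 in the others, but at 13.0 in unclassified fibroblasts, so its order turned against these alone. Among growth factors and receptors 7 of 47 tested were called higher and 11 lower (median −0.23). Gas6, a ligand of the TAM receptors, stood at 1235 CPM in members (566, 1285 and 2113) and 339 in the others (207, 340.0 and 452), and Igfbp7 at 3582 against 1294. The stem cell factor gene Kitl (217 against 98.2), the neurotrophin Ntf3, Angpt2 and the ephrin receptors Epha3 and Ephb2 were the others. Vegfd, a ligand of the lymphatic receptor VEGFR3, was lower (33.1 against 79.3 CPM), as were Fgf2 (17.3 against 101) and the guidance ligands Sema3c (62.3 against 291), Slit2 and Ntn4.

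Channel and mechanosensing genes held 2 called higher and 3 lower of 24 tested (median −0.22). Trpm3, a heat-gated and steroid-gated cation channel (25 against 11.5 CPM), and the caveolar Cav1 (173 against 74.7) were higher. The stretch channel Piezo2 (1.73 against 20.2) and the integrin chains Itga11 and Itgb5 were lower. Trpv4, the channel named in the study's title, was under the level for testing at 3.65 CPM in members and 2.97 in the others. Of 10 tested relatives of Tspan11 in the tetraspanin family 0 were called. Their median log2 ratio was 0.35, and their summed level was 3047 CPM in members (2706 to 3382 over suffixes) and 2235 in the others (2076 to 2293), without overlap. The most abundant, Cd63 (976 against 778 CPM), Cd81 (849 against 537) and Cd9 (629 against 347), were higher in members in 8 of 8 suffixes, by less than 2-fold.

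Of the 12 genes of lowest ratio, 9 had their highest level in Pi16 and Dpp4 fibroblasts among the other named kinds. That kind made up 3589 of the 6604 other fibroblasts and so weighed most in the ratio that picked these genes. The same share over all genes called lower was not counted. Mrgprg, a receptor of the Mas-related family, had 0 UMIs in members and 37.9 CPM in the others, at least 65.7 times lower where 3 counts are taken as the floor over the group. Limch1, an actin regulator (2.31 against 101 CPM), Edn1, endothelin-1 (2.69 against 99.0), the proprotein convertase Pcsk6 (5.0 against 126) and the phospholipase Pla1a (9.61 against 197) followed. Nav3 (8.84 against 160.2), Stmn4 (3.27 against 71.8), Rgs6 (4.61 against 92.3) and the secreted Angptl7 (3.65 against 75.5) were lower as well. Sv2c and Fam167a, at 1 and 2 UMIs in members, stood at 32.7 and 27.5 CPM in the others. Edn1 stood at 156 CPM in Pi16 and Dpp4 fibroblasts and at 10.5 to 27.6 in the other 3 named kinds. Limch1 stood at 156 CPM in Pi16 and Dpp4 fibroblasts, and Angptl7 was instead highest in the Col8a1 and Adamts16 kind, at 647.

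Members were next set against each other kind in turn. Against Pi16 and Dpp4 fibroblasts 254 of 6565 tested genes (3.87%) were called higher in members and 493 (7.51%) lower, led by Frmd5 (1.72 CPM in that kind), Hopx and Ifitm1 on the higher side and Mrgprg, Limch1 and Sv2c on the lower. Against the Tcf21, Asb4 and Rspo3 kind 248 of 6734 (3.68%) were higher and 580 (8.61%) lower. There Csmd1, a large membrane protein with complement-control domains (335 against 13.1 CPM), and Itgbl1 (215 against 8.33) led the higher genes with Frmd5, and Wt1 (3.46 against 522 CPM) and the carbonic anhydrase Car3 (5.0 against 422) the lower ones with Wt1os, the transcript antisense to Wt1. Reads of Wt1 and Wt1os may not be told apart, since whether strand was used in the counting is not given.

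Against the Ngfr and Fgf10 kind 212 of 6557 genes (3.23%) were called higher and 355 (5.41%) lower. Fmo2 (679 against 25.5 CPM), Pcdh11x and Frmd5 led the higher side, and Fabp4 (34.8 against 580), Car3 and Postn the lower. Against the Col8a1 and Adamts16 kind 244 of 6747 (3.62%) were higher and 362 (5.37%) lower. Gria4 (211 against 4.75 CPM), Mmp3 (1557 against 55.1) and Angpt2 led the higher side, and Sfrp5, Angptl7 and Cilp (12.7 against 1094) the lower. Sfrp5 had 0 UMIs in members and 148 CPM in that kind. Of the 150 genes called higher against all other fibroblasts, 133 (88.7%) had their highest level of the 5 named kinds in members, and 60 were at least 2 times above every other. Of the 411 called lower, 345 (83.9%) were lowest of the 5 in members. Both shares follow in part from the choice of these genes, which was made against a pool holding the same kinds. The shares over all tested genes were not counted, so these are a description only.

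Some genes of the members were shared with a single other kind. Mmp3 reached 615 CPM in Ngfr and Fgf10 fibroblasts, against 55.1 to 213 in the other 3 named kinds. Bgn was higher in the Col8a1 and Adamts16 kind (1872 CPM) than in members (1395), Klf5 was close in both (60.3 and 58.4), and Mgp reached 866 there. Kitl stood at 220.1 CPM in the Ngfr and Fgf10 kind and 217 in members. Against the 1824 unclassified fibroblasts 34 of 6425 tested genes (0.529%) were called higher in members and 174 (2.71%) lower, fewer than against any named kind. The unclassified cells lay between members and the other named kinds for Mmp3 (652), F3 (338), Fmo2 (359) and C2 (269 CPM).

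**Figure D3:**
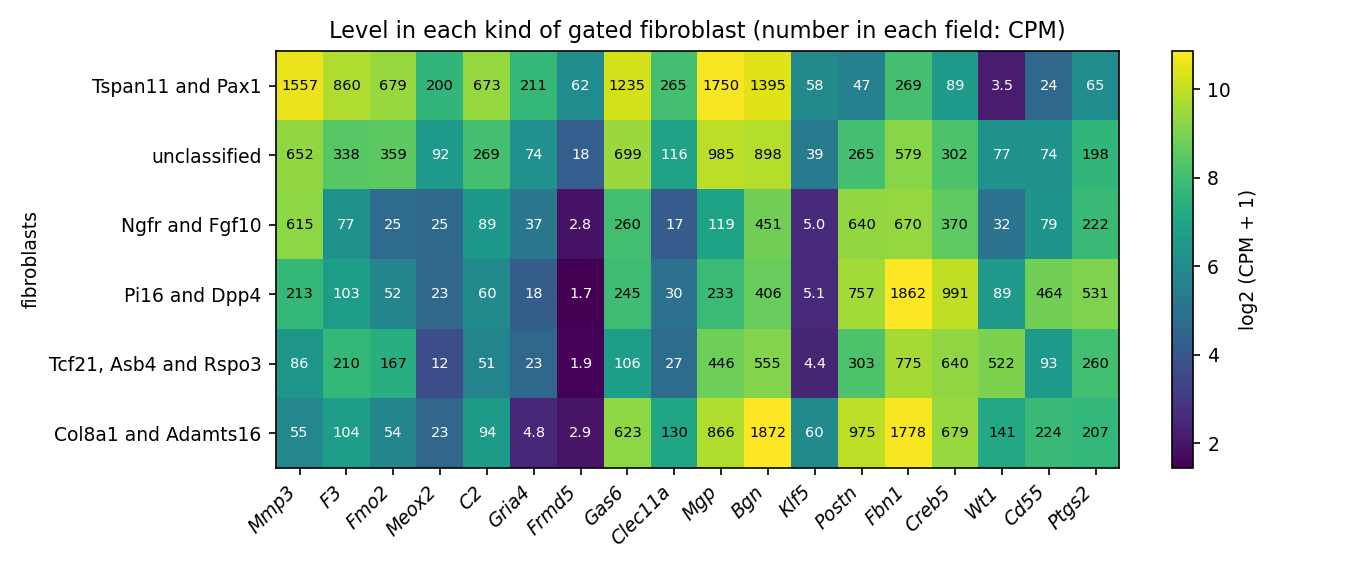
Levels of 18 genes in members and in the 5 other kinds of fibroblast, coloured by log2 (CPM + 1), with the CPM printed in each field. Rows are kinds of fibroblast, named by the genes of the rule. Fmo2 is at 679 CPM in members, 359 in unclassified fibroblasts and 167 or less elsewhere, and Wt1 is at 3.46 in members and 31.9 or more elsewhere.

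Members were also found near each other when the rule and gate genes were left out. On 30 principal components of 2000 variable genes, 40.6% of the 15 nearest neighbours of a member were members, against 5.76% for the other fibroblasts and 7.79% of all fibroblasts. A further 46.6% of members' neighbours were unclassified and 7.73% of the Pi16 and Dpp4 kind, which makes up 50.1% of all fibroblasts. Cells were not thinned for these distances. Median depths were 8988 UMIs in members, 8703 in unclassified fibroblasts and 12445 in the Pi16 and Dpp4 kind. The rule also asked that the sum of Pi16 and Dpp4 be the smaller in members. The part of depth and of the rule in the neighbour shares was not tested. At least 5 member neighbours were found for 382 of 558 members and for 502 of 6604 others, and 32 members had none. Of 19 clusters on this graph, cluster 7 held 274 members among 640 cells and cluster 10 held 161 among 549, together 78.0% of members. Pax1 was detected in 27.0% of the members of cluster 7 and 27.3% of those of cluster 10, and Mlana in 28.8% and 28.6%. The clusters divided the members by set of suffixes. Cluster 7 held 96, 59, 53 and 31 members of suffixes 1 to 4 and 12, 7, 6 and 10 of suffixes 5 to 8, and cluster 10 held 2, 1, 1 and 0 and then 40, 48, 27 and 42. They are therefore not read as separate types. Neighbours of members lay in the same set in 89.6% of cases, and those of other fibroblasts in 88.4%. The neighbour shares were therefore also taken by set, as a setting chosen after seeing the data. With neighbours sought in the same set, members made up 44.9% of members' neighbours in suffixes 1 to 4 and 35.2% in suffixes 5 to 8, where they were 9.11% and 6.58% of the cells searched. With neighbours sought only in the other set, the values were 32.8% for members of suffixes 1 to 4 and 39.2% for those of suffixes 5 to 8, against 4.81% and 6.47% for the other fibroblasts. Non-members had 66.1 CPM of Tspan11 in cluster 7 and 41.3 in cluster 10, against 11.6 over all other fibroblasts.

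**Figure D4:**
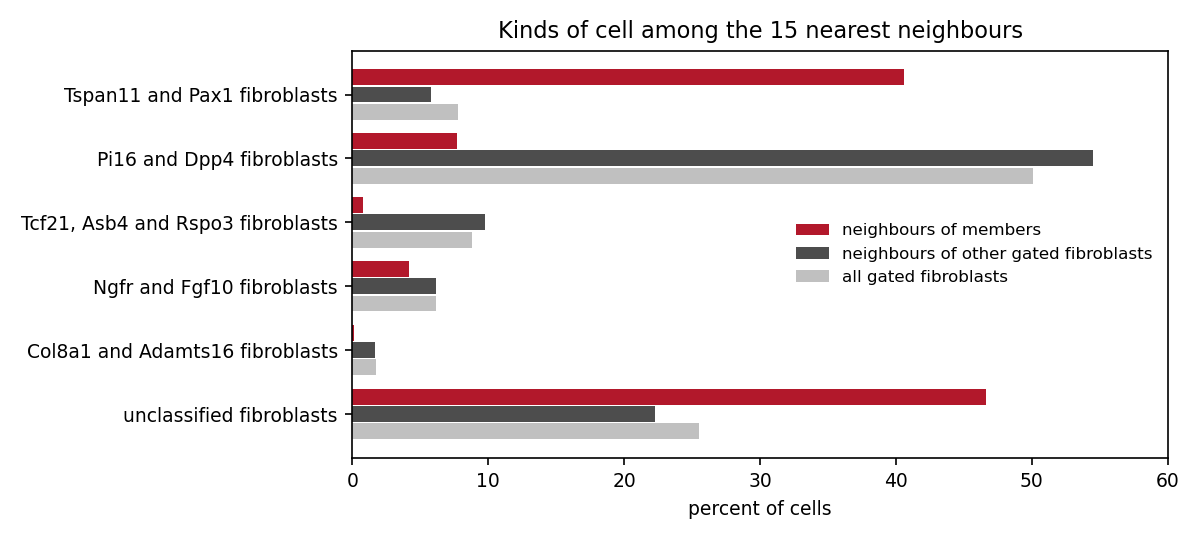
Kinds of cell among the 15 nearest neighbours of each cell, in percent, with rule and gate genes left out of the distances. Red bars give the neighbours of members, dark bars those of other fibroblasts and light bars the share of each kind among all fibroblasts. Members make up 40.6% of members' neighbours and 7.79% of all fibroblasts.

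The label was checked against markers of other cells. Despite Mlana, the melanocyte genes Dct, Tyrp1, Slc45a2 and Gpr143 had 0 UMIs in members, and Pmel had 2 and Tyr 1. The 11 melanocyte markers other than Mlana summed to 104 CPM in members and 150 in the other fibroblasts, nearly all of it Mitf (101 against 147), which many cell types express. Of the 5 fibroblast markers outside the rule, 0 were called higher and 1 lower, Dpt (579 against 1207 CPM), and Lum stood at 777 against 523 CPM. Summed smooth muscle and pericyte markers stood at 184 against 363 CPM, mesothelial markers at 23.4 against 196, tendon and cartilage markers at 52.3 against 114, and endothelial markers at 18.8 against 19.5. The 8 glial markers instead summed higher in members, at 54.2 against 31.7 CPM, with overlapping suffix ranges (25.5 to 88.5 and 19.3 to 50.7). Of 2 tested, S100b was the single glial marker called higher (26.9 against 12.5 CPM), while Sox10 had 1 UMI and Foxd3 0.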

How the data were processed

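Droplet-based single-cell RNA sequencing was read from a matrix of raw UMI counts that the authors deposited, and which Cell Ranger 7.1.0 had written, per the file headers. The deposited gene and barcode lists hold names only, with no values of another kind. The submitters' processing notes also name Seurat 4.3.0.1 and mm10. The sources used here do not name the counting annotation, and gene positions were taken from GENCODE M21. No barcode was tied to a mouse or sex by a label, so the planned descriptions per mouse were not made.

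For each group of cells, counts were added up and scaled to CPM by total gene UMIs. Levels carry exact Poisson, ratios exact conditional binomial and shares exact Clopper-Pearson 95% intervals. A log2 ratio is that of CPM + 1. Named genes were the 20 called genes with the highest and the 12 with the lowest ratio, called genes of each list (where fewer than 3, also the 3 of highest level), Hox genes at 5 CPM or more, the given markers and, for each other kind of fibroblast, the 3 highest and 3 lowest. Members and lists were chosen with earlier results of these data known, and the erythrocyte list after values had been seen. Genes such as Col1a1, Col3a1, Lum, Trpv4 and the single markers of other cells were named outside this rule, after their values were seen. Some genes that meet the rule are not reported here.

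Doublets were scored with Scrublet's method in scanpy 1.11.5 within each set of 4 suffixes and kept, as the rule says. Thinning to 3000 UMIs left out 7 members, 172 other fibroblasts and 777 leukocytes. The 24046 barcodes held 232753017 gene UMIs, a median of 8684.5 each. The call rule was tested on simulated data. Other barcode filters, thresholds, depths, comparison cells and left-out suffixes were tried as alternatives.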

Additional observations from a re-analysis of the deposited data

How the results depend on the processing

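The number of members, 558, was 334 when the sum had to reach 3, 838 when it had to reach 1, 164 when the rule was applied at 3000 UMIs and 144 when Tspan11 was left out of the sum. The share of fibroblasts, 7.79%, became 4.66%, 11.7%, 3.29% and 2.01% under these settings, 6.70% without Pax1 and 6.42% without Mlana. The 150 genes called higher became 322 at 1.5-fold, 52 at 3-fold, 84 at 50 CPM, 294 with no filter on low values and 34 against unclassified fibroblasts only. The 411 called lower became 857 at 1.5-fold, 195 at 3-fold, 2231 with no filter and 174 against unclassified fibroblasts. The fold settings moved only the threshold, and the other settings changed the cells or genes that entered. Against unclassified fibroblasts Wnt2 turned to 0.43 and Cxcl14 to −0.076 on the log2 scale, and the cause was not tested. These 2 were the turned values among 3423 of the 163 called genes named, over 21 settings. With doublets removed 145 were higher and 418 lower, and with cells thinned to 3000 UMIs 140 and 431. Leaving out each suffix in turn gave 146 to 161 and 398 to 432. At 3000 UMIs the ratio of left-out Tspan11 was 5.68 and that of Pax1 3.56, on 28 and 10 UMIs, with the order kept in 5 of 8 suffixes each. No paired analysis was possible between mice or sexes because the barcode suffixes carry no label. Members and others of 1 suffix were set against each other, and by the median of suffix log2 ratios 132 genes were higher and 437 lower. With neighbours sought by set of suffixes, a setting added after seeing the data, the 40.6% of members' neighbours that were members became 44.9% and 35.2% within suffixes 1 to 4 and 5 to 8, and 32.8% for members of the first set sought in the second. At this depth a cell without a UMI of Tspan11, Pax1 or Mlana may still express it.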

Other observations

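Within the members, F3, C2 and Clec11a fell into separate ranges in the sets of suffixes 1 to 4 and 5 to 8, which carry no label and within which no barcode sequence recurs. They were picked after their values were seen. How many of all tested genes part in this way was not counted, so the separation is not read as particular to them. F3 stood at 1349, 1133, 969.8 and 978 CPM in suffixes 1 to 4 and at 354, 682, 378 and 576 in suffixes 5 to 8. C2 ran the other way, at 534, 445, 477 and 414 CPM and then at 759, 970.1, 893 and 1024. Clec11a, too, was lower in the first set, at 186, 150.4, 192 and 239.8 CPM, than in the second, at 308, 366, 299.8 and 455. In the other fibroblasts the ranges of F3 overlapped (213, 226, 185 and 148 against 116, 175, 95.4 and 130.3 CPM). Those of C2 did not (101, 87.9, 87.6 and 96.5 against 111, 124, 116 and 123), nor did those of Clec11a (42.1, 33.9, 46.8 and 39.8 against 55.3, 56.3, 51.6 and 69.5). Members made up 9.11% of the fibroblasts of suffixes 1 to 4 (312 of 3423) and 6.58% of those of suffixes 5 to 8 (246 of 3739). What the sets stand for is not given, and no test was made.

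Haemoglobin RNA rested on few cells. Hbb-bs stood at 414.5 CPM in members and 36.1 in the other fibroblasts, but 2 members held 2115 of the members' 2157 UMIs, and the next highest held 4. It was not called, since it was higher in 3 of 8 suffixes. Without cells of 100 or more Hbb-bs UMIs, a setting added after seeing the data, 556 members were left, and 151 genes were called higher and 413 lower. Of 5 erythrocyte genes 4 were tested, and 0 were called in either direction.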
